A study of Mus musculus with 12 samples.

Results

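The interleukin-1 (IL-1) family was described by 10 genes in mouse dorsal skin, taken by name from the 36400 genes of the deposited table. They are the agonists Il1a, Il1b, Il18, Il33, Il36a, Il36b and Il36g, the antagonists Il1rn and Il36rn, and Il1rl1, which encodes ST2, the receptor for IL-33. The table lists 4 of them under older names, Il36a as Il1f6, Il36b as Il1f8, Il36g as Il1f9 and Il36rn as Il1f5. All 10 were among the 21890 genes tested. The study asked whether mesenchymal stem cells (MSCs) alter a dermatitis that 2,4-dinitrochlorobenzene (DNCB), a contact sensitizer, causes in the skin. Female BALB/c mice, 6 weeks old when bought, formed 4 groups, and dorsal skin RNA of 3 mice per group, harvested on day 30, is analysed here. Control mice received only the vehicle, a mixture of acetone and olive oil. Mice of the DNCB group were sensitized with 1% DNCB between days 0 and 9 and challenged with 0.5% DNCB between days 12 and 27. The scMSC and scivMSC groups had the same DNCB course and, in addition, 4 injections of 2000000 human umbilical cord MSCs between days 13 and 25. Each injection of 100 µL went under the dorsal skin in scMSC mice. In scivMSC mice 50 µL of it went there and the other 50 µL into a tail vein. No group received MSCs without DNCB, and none is described with injections of the culture solution alone. Effects of the cells and of the injections therefore cannot be told apart.

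Cytokines of this family are alarm signals of barrier tissues. IL-1α, IL-33 and the IL-36 cytokines are made largely by epithelial and stromal cells, while IL-1β comes mainly from myeloid cells and, like IL-18, is cut to its active form by caspase-1. Each agonist binds a receptor that recruits an accessory chain and the adaptor MyD88, which leads to NF-κB, whereas IL-1Ra and IL-36Ra, the products of Il1rn and Il36rn, occupy the receptors without signalling.

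Levels are FPKM as the authors gave them, fragments scaled for transcript length and library depth, so that genes can be compared. Group levels are mean ± SD of 3 mice. Differences are log2 fold changes ± the standard error, from edgeR's quasi-likelihood test on the estimated counts of all tested genes, with Benjamini-Hochberg adjusted p-values. A positive value is higher in the group named before "against". A gene was called when its adjusted p was under 0.05 and its log2 fold change beyond 1 in either direction. The total of estimated counts was 63877153 to 75134001 per library. In the test each library is also scaled by a factor (TMM), which the FPKM do not carry. A narrow gap between FPKM ranges may therefore not hold on the scale of the test. P-values set a group difference against the spread between these mice, which edgeR estimates with information from all genes and all 4 groups. In bulk RNA fewer cells of a type and less RNA per cell cannot be told apart. An exact two-sided permutation test of 3 mice against 3 cannot go below p = 0.1, so ratios and summed levels are given without a p. Comparisons with DNCB share the DNCB libraries, and those with control share the control libraries.

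Against control, 4 of the 10 genes were called in DNCB skin. Il1b, Il33 and Il1rl1 rose, beside 6.59% of all tested genes called higher, and Il18 fell, beside 7.57% called lower. Compared with scMSC, 4 genes were higher in DNCB, Il1b, Il33, Il36a and Il36g, beside 3.84% of all genes called higher, and 0 of the 10 were lower, beside 4.66%. Compared with scivMSC, Il1b and Il33 were higher in DNCB, 2 of 10 beside 2.33%, and 0 were lower, beside 3.13%. These counts of 0 are edgeR's. DESeq2 and limma on log2(FPKM + 0.1) also gave 0 lower genes, with 6 of the 10 at an unadjusted p under 0.05 against scMSC and 5 against scivMSC in either direction. The count against control was 2 without control 2. Against scivMSC it was 1 without any single DNCB library, 0 without scivMSC 1 or scivMSC 3, and 3 without control 3.

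**Figure D1:**
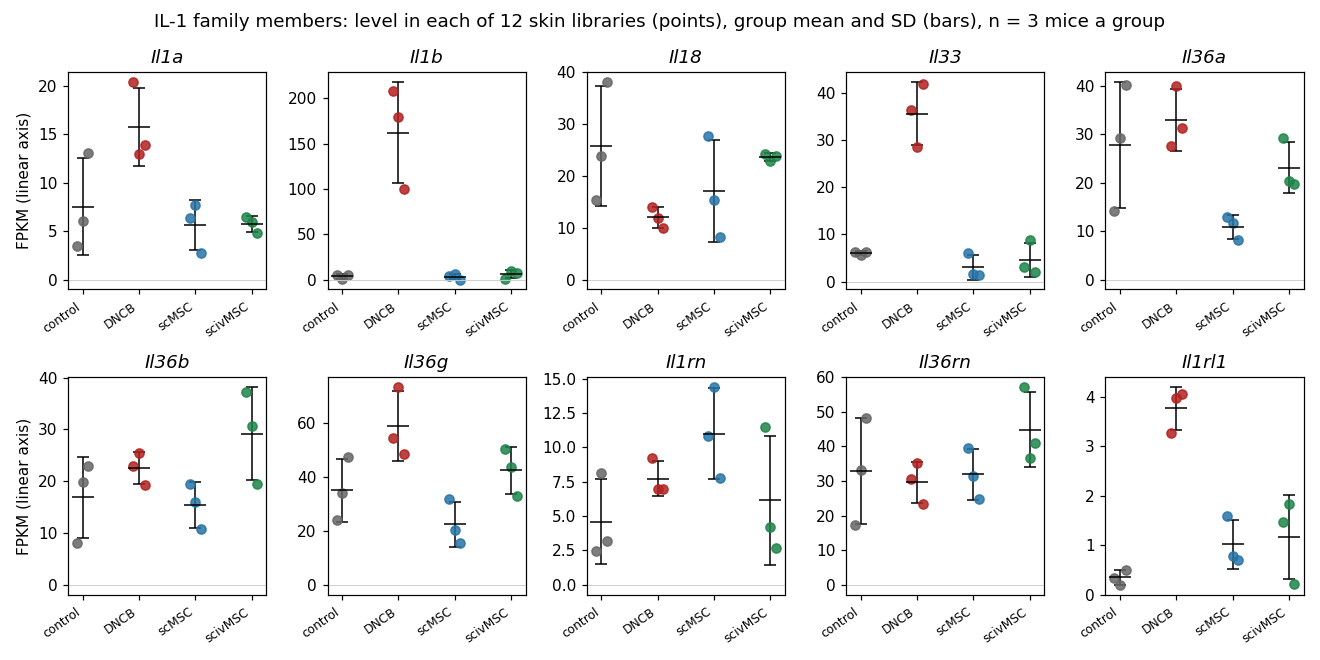
FPKM (linear axes) of each of the 10 genes in every library, with the 3 mice of each group as points and bars for the group mean and SD. Il1b is at 99.8 to 208 FPKM in the DNCB libraries and at 0.388 to 10.1 in the other 9.

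Il1b, which encodes IL-1β, had the widest range of the 10 genes. Its level was 5.80, 0.608 and 5.25 FPKM in the control mice, 208, 179 and 99.8 in DNCB, 4.39, 6.04 and 0.388 in scMSC and 1.31, 10.1 and 7.52 in scivMSC. Every DNCB library was above each of the other 9, and the control, scMSC and scivMSC libraries overlapped. The log2 fold change was 5.21 ± 1.14 against control (adjusted p = 0.00757), 5.44 ± 1.16 against scMSC (0.0119) and 4.67 ± 1.11 against scivMSC (0.0292). The last of these was no longer called without DNCB 1 (adjusted p = 0.0766), DNCB 2 (0.0726), DNCB 3 (0.0544), scivMSC 1 (0.0909) or scivMSC 3 (0.0904), and over the 22 alternatives it ran from 1.74e-04 to 0.0909.

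Markers of neutrophils, a source of IL-1β, were measured beside it. Their 14 genes summed to 126, 122 and 210.3 FPKM in control, 3249, 3528 and 2548 in DNCB, 44.7, 68.1 and 17.0 in scMSC and 37.3, 186 and 86.1 in scivMSC. The DNCB libraries were above the rest and the scMSC libraries below control, where Cxcr2 and S100a8 were called lower in scMSC. Against control, 12 of the 14 genes were higher and 1, Mpo, lower in DNCB. In DNCB, 11 were higher than in scMSC and 9 higher than in scivMSC. S100a9 was the most abundant. With S100a8 it made up most of each sum in all 4 groups, and keratinocytes can express both. In DNCB, S100a9 was at 2089, 2236 and 1573 FPKM and S100a8 at 905, 1053 and 788. Ly6g, which defines neutrophils, was at 0 in the 9 libraries outside DNCB and at 2.67, 4.93 and 1.83 FPKM in DNCB. Monocyte and macrophage markers were separated less. Their 12 genes, led by Lyz2, summed to 226, 248 and 878 FPKM in control, 784, 836 and 865 in DNCB, 435, 184 and 202 in scMSC and 366, 457 and 53.4 in scivMSC. Control 3 was above all DNCB libraries, and of the 3 comparisons edgeR called only Itgam, higher in DNCB than in scMSC, where DESeq2 called 5 and limma 1, with 5 at an unadjusted p under 0.05. Of its counts of 0, that against control had 1 gene at an unadjusted p under 0.05 and 1 called by DESeq2 and by limma, and that against scivMSC 5 at an unadjusted p under 0.05, 5 by DESeq2 and 0 by limma. The part of these cells in the level of Il1b was not tested.

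Il1a encodes IL-1α, which keratinocytes store as an active precursor. It stood at 3.43, 6.09 and 13.1 FPKM in control, 20.4 and 13.9 in DNCB 1 and DNCB 3 and just under control 3 in DNCB 2, 6.39, 7.69 and 2.76 in scMSC and 6.46, 5.95 and 4.80 in scivMSC. All DNCB libraries were above those of scMSC and scivMSC, and control 3 reached into the DNCB range. The log2 fold change was 0.90 ± 0.46 against control (adjusted p = 0.176) and 1.45 ± 0.46 against both scMSC (0.0656) and scivMSC (0.0824), none of them called. Without control 3 all 3 were called (adjusted p = 0.0411, 0.0362 and 0.0498 in the same order), and without control 1 that against scMSC (0.0421). DESeq2 called it against scMSC (adjusted p = 0.0121) and scivMSC (0.0136), limma on log2(FPKM + 1) against scMSC (0.0430), as did limma on log2(FPKM + 0.1) just within the threshold, and the 6 libraries alone against scivMSC (0.0182). Over the alternatives the adjusted p ran from 0.0411 to 0.457, from 0.0121 to 0.191 and from 0.0136 to 0.229 in these 3 comparisons. Il1b was the more abundant of the pair in DNCB, with a ratio to Il1a of 7.20 to 13.8, and at 0.0999 to 1.69 in the other groups.

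Il33 encodes an alarmin kept in the nucleus of keratinocytes, fibroblasts and endothelium. It was present at 6.20, 5.55 and 6.33 FPKM in control, 36.4, 28.5 and 41.9 in DNCB, 6.07, 1.65 and 1.43 in scMSC and 3.05, 8.79 and 2.06 in scivMSC. No library outside DNCB was within the DNCB range, and the control libraries varied least. Il33 rose in DNCB by a log2 fold change of 2.38 ± 0.59 against control (adjusted p = 0.0133), 3.54 ± 0.62 against scMSC (0.00495) and 2.95 ± 0.60 against scivMSC (0.0164). Il33 and Il1b were the genes called in all 3 comparisons. Leaving out control 2 gave adjusted p = 0.0502 against control, and leaving out scivMSC 1 or scivMSC 3 gave 0.0729 or 0.0556 against scivMSC. Over the alternatives these ran from 1.32e-04 to 0.0502 and from 2.89e-06 to 0.0729. In scMSC, Il33 was at 3.05 ± 2.62 FPKM, a log2 fold change of -1.17 ± 0.57 against control (adjusted p = 0.185). Without scMSC 1, its highest scMSC library, the value was -2.09 (adjusted p = 0.0198, with a range of 0.0198 to 0.405 over the alternatives).

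Il1rl1, the gene of the IL-33 receptor ST2, was the least abundant of the 10 in every group. It measured 0.337, 0.203 and 0.499 FPKM in control (105 to 242 estimated counts), 3.27, 3.98 and 4.06 in DNCB (1692 to 2274 counts), 1.59, 0.780 and 0.700 in scMSC and 1.47, 1.84 and 0.214 in scivMSC. The DNCB libraries were the highest, the scMSC libraries lay between control and DNCB, and scivMSC 3 fell within the control range. Il1rl1 rose against control by 3.27 ± 0.64 (adjusted p = 0.00456). Its values against scMSC, 1.87 ± 0.61 (adjusted p = 0.0707), and scivMSC, 1.71 ± 0.60 (0.114), did not pass. DESeq2 called both (adjusted p = 0.00920 and 0.0242), as did limma on log2(FPKM + 1) (0.0140 and 0.0226), and the 6 libraries alone that against scMSC (0.0155). Against scivMSC the alternatives ran from 0.0226 to 0.226. Against control, scMSC was at 1.40 ± 0.60 and scivMSC at 1.56 ± 0.61, neither called by edgeR. Without scivMSC 3, DNCB against scMSC (adjusted p = 0.00784), scMSC against control (0.0248) and scivMSC against control (0.00837, log2 fold change 2.02) were called. The adjusted p over the alternatives ran from 0.00784 to 0.197, from 0.0248 to 0.336 and from 0.00837 to 0.341 for these. The counts are per gene, so the membrane form of ST2 and the soluble decoy from the same gene are added together.

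Mast cells and some lymphocytes carry ST2, and fibroblasts and endothelium can make IL-33, so their markers were measured too. The 8 mast cell markers, most abundant Mcpt4, summed to 38.4, 22.8 and 33.5 FPKM in control, 111, 129 and 107 in DNCB, 118, 54.2 and 56.2 in scMSC and 103, 113 and 19.4 in scivMSC. Mast cell sums in DNCB were above control, and scMSC 1 and scivMSC 2 reached the DNCB range. Of the 8, Fcer1a, Hdc and Tpsb2 were higher in DNCB than in control, and Hdc alone than in scMSC and in scivMSC. The median log2 fold changes of the 8 were 1.41, 0.50 and 0.44 in these 3 comparisons. The study cites Hdc overexpression in keratinocytes of patients, so Hdc is not read here as a signal of mast cells alone. The 7 fibroblast markers, led by Col3a1, summed to 433, 381 and 567 FPKM in control, 2333, 2452 and 2110 in DNCB, 953, 335 and 464 in scMSC and 895, 1114 and 160.1 in scivMSC, with 4 genes called higher against control and 3 against scMSC. Against scivMSC edgeR called 0, with 5 at an unadjusted p under 0.05, DESeq2 4 and limma 2. The lists share no gene with the 10, and their part in the levels of Il33 and Il1rl1 was not tested. Endothelial markers, 6 genes led by Pecam1, were at 22.3 to 32.0 FPKM in control, 46.6 to 60.8 in DNCB, 19.9 to 33.0 in scMSC and 14.7 to 40.0 in scivMSC, and 1, 4 and 1 of them were called higher in DNCB in the 3 comparisons. T cell and innate lymphoid markers, led by Gata3, summed to 38.3 to 44.9 FPKM in control, 52.2 to 56.0 in DNCB, 44.2 to 47.0 in scMSC and 37.7 to 44.4 in scivMSC. Thy1, which fibroblasts express too, held 38.6 to 42.9 FPKM of the DNCB sums, and Gata3 averaged 10.2 FPKM in DNCB. These genes made up most of the DNCB sums, which are therefore no measure of T cells. Of the 9, Cd8a and Foxp3 were under 0.1 FPKM and not tested. Cd4 and Thy1 were higher in DNCB than in control and scMSC, Thy1 than in scivMSC, and Gata3 was lower in all 3 comparisons. Cd3e, which defines T cells, was at 0.491 ± 0.230 FPKM in control and 0.190 ± 0.0921 in DNCB and, like Cd3g, was not called in these.

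Il18, the gene of IL-18, was the member called lower in DNCB than in control. It was at 15.3, 23.9 and 38.2 FPKM in control, 14.1, 11.9 and 9.94 in DNCB, 27.7, 15.3 and 8.31 in scMSC and 24.3, 22.8 and 23.9 in scivMSC. All DNCB libraries were below control and below scivMSC, the scMSC libraries spanned both, and the scivMSC libraries were almost equal. Against control, Il18 fell by 1.27 ± 0.39 on the log2 scale (adjusted p = 0.0351). It was not called without control 2 (adjusted p = 0.0620), control 3 (0.114), DNCB 1 (0.0659), DNCB 2 (0.0885) or DNCB 3 (0.113), nor when scaled by library size alone (0.0645) or tested with limma on log2(FPKM + 0.1) (0.0784). Over the 22 alternatives the adjusted p ran from 0.00546 to 0.114, and 12 of them called it. DNCB against scMSC was at -0.53 ± 0.39 (adjusted p = 0.451) and against scivMSC at -0.99 ± 0.39 (0.153). Markers of Langerhans and dendritic cells, which can express Il18, were 7 genes led by Cd74 and summed to 199, 212 and 303 FPKM in control, 124, 114 and 112 in DNCB, 246, 196 and 119.5 in scMSC and 248, 207 and 143 in scivMSC. The DNCB sums were below control, and 4 of the 7, Cd207, Cd74, H2-Aa and H2-Ab1, were called lower. Against scMSC, Cd207 and Epcam were lower in DNCB, and against scivMSC Cd207. Their part in the level of Il18 was not tested.

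The genes Il36a, Il36b and Il36g encode the IL-36 agonists, which keratinocytes make. Il36g was the most abundant of them in all 12 libraries. It was at 24.0, 34.0 and 47.2 FPKM in control, 54.4, 73.3 and 48.6 in DNCB, 31.7, 20.3 and 15.5 in scMSC and 50.5, 43.7 and 33.0 in scivMSC. In FPKM all DNCB libraries were above control and scMSC, DNCB 3 (48.6) only just above control 3 (47.2). Library scivMSC 1 reached the DNCB range, and the scMSC libraries were below those of scivMSC. DNCB against scMSC was called, at 1.37 ± 0.29 (adjusted p = 0.0115), while the values against control, 0.57 ± 0.28 (0.168), and scivMSC, 0.47 ± 0.28 (0.367), were not. In scMSC against control the log2 fold change was -0.80 ± 0.28 (adjusted p = 0.0776), called without control 1 (0.0496) and without scMSC 1 (0.0294), with a range of 0.0294 to 0.219 over the alternatives.

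Il36a was at 14.1, 29.3 and 40.2 FPKM in control, 27.6, 40.0 and 31.4 in DNCB, 12.9, 11.6 and 8.16 in scMSC and 29.2, 20.3 and 19.8 in scivMSC. The 3 scMSC libraries were the lowest of the 12, and control spanned the range of DNCB and scivMSC. Il36a was lower in scMSC than in DNCB, with DNCB against scMSC at 1.57 ± 0.33 (adjusted p = 0.0117), and it fell in scMSC against control by 1.50 ± 0.33 (adjusted p = 0.0114). It was the 1 gene of 10 called between scMSC and control, beside 9.32% of all genes called in either direction. Fitting the 6 libraries alone gave adjusted p = 0.0547 for scMSC against control, the highest over the alternatives, whose lowest was 1.57e-04. DNCB against control was at 0.08 ± 0.32 (adjusted p = 0.898), and the value turned negative without control 1 (-0.27) or DNCB 2 (-0.09).

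Il36b was called in 0 of the 6 comparisons by edgeR, DESeq2 and limma, with 1 comparison at an unadjusted p under 0.05. It was at 8.06, 19.8 and 22.9 FPKM in control, 22.9, 25.4 and 19.3 in DNCB, 19.5, 15.9 and 10.7 in scMSC and 37.3, 30.7 and 19.5 in scivMSC. Its groups overlapped except for scMSC and scivMSC, where the scMSC libraries were below the lowest scivMSC library, scMSC 1 only just. The log2 fold change of scMSC against scivMSC was -0.90 ± 0.35 (adjusted p = 0.621). Together the IL-36 agonists summed to 46.1, 83.1 and 110.2 FPKM in control, 105, 139 and 99.4 in DNCB, 64.1, 47.7 and 34.4 in scMSC and 117, 94.7 and 72.4 in scivMSC. The scMSC sums were below those of DNCB and scivMSC, and they overlapped control.

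Keratinocyte markers were compared with the IL-36 genes list by list. The 7 stress keratinocyte markers, led by Krt6a, summed to 569, 574 and 688 FPKM in control, 7718, 9617 and 8914 in DNCB, 935, 1491 and 708 in scMSC and 1288, 4903 and 1205 in scivMSC, with 7 called higher in DNCB against control, 6 against scMSC and 1 against scivMSC. In the last comparison DESeq2 called 4 and limma 5, and 6 had an unadjusted p under 0.05. Basal keratinocyte markers, 7 genes led by Krt14, summed to 2195 to 3047 FPKM in control, 8221 to 10497 in DNCB, 1771 to 2608 in scMSC and 2907 to 5530 in scivMSC. Krt14 and Krt5 were called higher in DNCB in all 3 comparisons and Itga6 against scMSC, and Krt15 was lower than in control. Suprabasal markers, 8 genes led by Krt10, overlapped between groups, at 4821, 8335 and 11575 FPKM in control, 9183, 10506 and 6418 in DNCB, 8498, 5186 and 4132 in scMSC and 10809, 11964 and 7190 in scivMSC. Of these, Lor was lower in DNCB in all 3 comparisons and Sbsn against control. The part of keratinocyte content in the IL-36 levels was not tested. All 6 genes of the skin check, Krt5, Krt14, Krt1, Krt10, Col1a1 and Col3a1, were present, summing to 4475 to 20541 FPKM, and 4, 4 and 2 of them were called higher in DNCB in the 3 comparisons.

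Neither antagonist was called in any of the 6 comparisons by edgeR, DESeq2 or limma, and in edgeR neither had an unadjusted p under 0.05. Il36rn was at 17.3, 33.2 and 48.1 FPKM in control, 30.5, 35.2 and 23.4 in DNCB, 39.7, 31.4 and 24.7 in scMSC and 57.2, 36.6 and 41.0 in scivMSC. The scivMSC libraries were above those of DNCB, and the other groups overlapped. The log2 fold change of DNCB was -0.31 ± 0.32 against control (adjusted p = 0.520), -0.12 ± 0.32 against scMSC (0.873) and -0.60 ± 0.32 against scivMSC (0.301). Il1rn was at 2.49, 8.13 and 3.18 FPKM in control, 9.21, 6.99 and 6.97 in DNCB, 10.8, 14.4 and 7.79 in scMSC and 11.5, 4.24 and 2.69 in scivMSC. Its scMSC mean of 11.0 ± 3.33 was the highest, and the libraries of every pair of groups overlapped. The gene gives secreted and intracellular forms of IL-1Ra, which the counts add together.

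Levels of agonists were divided by those of their antagonists. Il1b over Il1rn was 2.33, 0.0748 and 1.65 in control, 22.6, 25.6 and 14.3 in DNCB, 0.405, 0.418 and 0.0498 in scMSC and 0.114, 2.37 and 2.80 in scivMSC. Each DNCB library exceeded the others, and Il1rn was above Il1b in all 3 scMSC libraries. With Il1a added to Il1b, the ratio to Il1rn was 0.824 to 5.77 in control, 16.3 to 27.4 in DNCB, 0.404 to 0.996 in scMSC and 0.675 to 4.58 in scivMSC. The IL-36 agonist sum over Il36rn was 2.66, 2.50 and 2.29 in control, 3.44, 3.94 and 4.24 in DNCB, 1.61, 1.52 and 1.39 in scMSC and 2.05, 2.58 and 1.77 in scivMSC. The DNCB libraries were the 3 highest and the scMSC libraries the 3 lowest of the 12, and relative to its mean the ratio varied less within each group than the agonist sum did. These group means were 2.48 ± 0.184, 3.87 ± 0.404, 1.51 ± 0.111 and 2.13 ± 0.415.

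**Figure D2:**
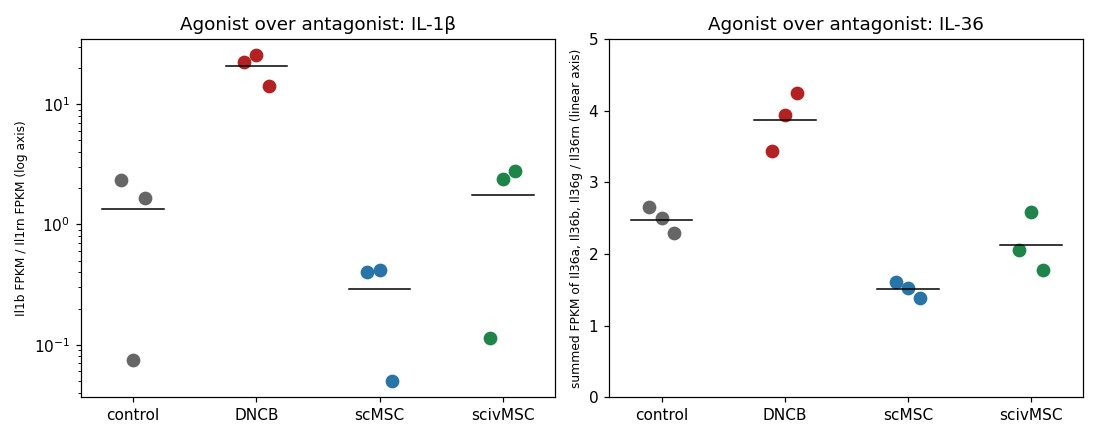
Ratio of Il1b to Il1rn and of the summed IL-36 agonists to Il36rn in FPKM, per library (points) with group means (lines), on a log axis for the former and a linear axis for the latter. The IL-36 ratio is 3.44 to 4.24 in DNCB and 1.39 to 1.61 in scMSC.

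The makeup of the family was given by shares of the summed agonists. The 7 agonists summed to 76.8, 119 and 173 FPKM in control, 384, 371 and 265 in DNCB, 109, 78.4 and 47.3 in scMSC and 152, 142 and 111 in scivMSC. Il1b made up 37.7% to 54.2% of that sum in DNCB, 0.510% to 7.55% in control, 0.820% to 7.70% in scMSC and 0.861% to 7.07% in scivMSC. IL-36 agonists held 27.3% to 37.5% in DNCB, and 60.0% to 69.7%, 59.0% to 72.8% and 65.4% to 76.9% in control, scMSC and scivMSC. Il18 was at 19.9% to 22.1% in control, 17.6% to 25.5% in scMSC and 16.0% to 21.6% in scivMSC, and 3.22% to 3.75% in DNCB. Il33 made up 7.69% to 15.8% in DNCB, 3.66% to 8.07% in control, 2.10% to 5.59% in scMSC and 1.86% to 6.18% in scivMSC, which overlap for control and DNCB.

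By mean level in control, the order was Il36g, Il36rn, Il36a, Il18, Il36b, Il1a, Il33, Il1rn, Il1b and Il1rl1, and neighbours overlapped in their ranges except Il1b and Il1rl1. In DNCB the order was Il1b, Il36g, Il33, Il36a, Il36rn, Il36b, Il1a, Il18, Il1rn and Il1rl1. Il1b stood clear of Il36g, Il36g of Il33, Il18 of Il1rn and Il1rn of Il1rl1, while the others overlapped their neighbours. In scMSC it ran Il36rn, Il36g, Il18, Il36b, Il1rn, Il36a, Il1a, Il1b, Il33 and Il1rl1, and in scivMSC Il36rn, Il36g, Il36b, Il18, Il36a, Il1b, Il1rn, Il1a, Il33 and Il1rl1. Il36rn headed the list in both MSC groups, with a range that overlapped that of Il36g. Neighbours overlapped there too, except Il36a and Il1a in scMSC, and Il36a and Il1b, and Il33 and Il1rl1, in scivMSC.

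**Figure D3:**
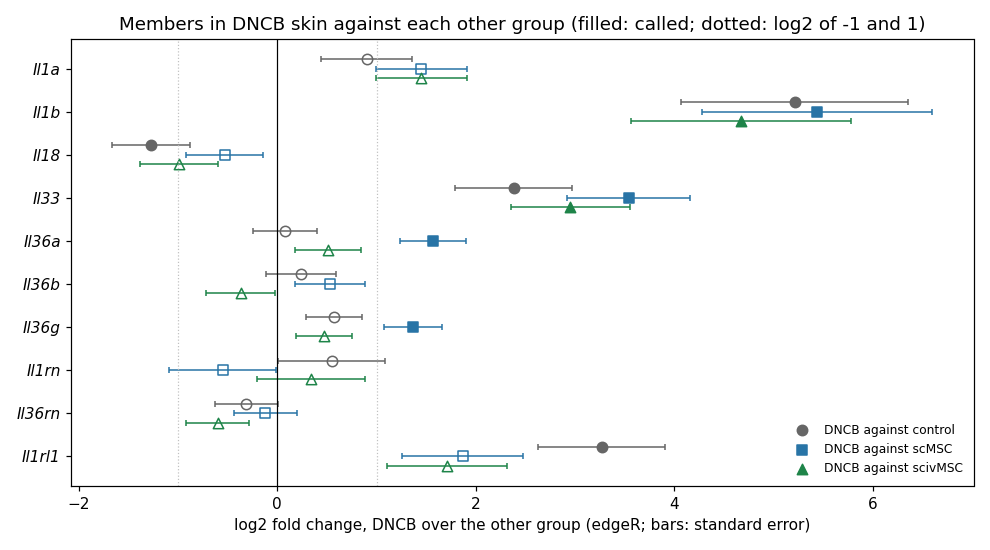
Log2 fold change of DNCB against control, scMSC and scivMSC for each gene, with standard errors as bars and filled points where the gene was called. Il1b lies at 5.21, 5.44 and 4.67.

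Each MSC group was compared with control as well. For scivMSC against control 0 of the 10 genes were called by edgeR, beside 6.85% of all genes, with 1 at an unadjusted p under 0.05, while DESeq2 called 1, Il1rl1 (adjusted p = 0.0428), and limma 0. The route of injection was compared directly as scMSC against scivMSC. There, 0 of the 10 were called by edgeR, DESeq2 or limma, beside 0.00457% of all genes, with 3 at an unadjusted p under 0.05. These 3 were Il36a at -1.06 ± 0.33 (adjusted p = 0.571), Il36g at -0.90 ± 0.29 (0.571) and Il36b at -0.90 ± 0.35 (0.621), whose scMSC libraries were below those of scivMSC, at the edge for Il36b. Il36a and Il36g, called against scMSC but not against scivMSC, are therefore not shown to differ by route. The scMSC against scivMSC value of Il1rl1 was -0.16 with an adjusted p of 0.991, and its sign turned with limma on log2(FPKM + 0.1), to 0.11. The scMSC against control value of Il36rn, -0.19 (adjusted p = 0.735), turned with limma to 0.05. Without scMSC 1, which was the highest scMSC library for Il18, Il33, Il36a and Il36g, 4 genes were called lower in scMSC than in control, Il18 among them at -1.22 (adjusted p = 0.0468, in a range of 0.0468 to 0.500).

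The receptor list holds 9 genes, of which Il1rl1 is also one of the 10. In DNCB, 4 were called higher and 1 lower than in control, 3 higher than in scMSC and 2 higher than in scivMSC. The median log2 fold changes were 0.66, 0.54 and 0.54, beside 0.02, -0.02 and -0.02 for all genes. Sigirr, a negative regulator, was the gene lower than in control, and Il1r2, a decoy receptor, was higher than in scMSC. Il18rap, the accessory chain of the IL-18 receptor, was at 0.248, 0.0452 and 0.268 FPKM in control, 1.39, 1.56 and 2.00 in DNCB, 0.331, 0.103 and 0.0631 in scMSC and 0.269, 0.218 and 0.226 in scivMSC. It was higher in every DNCB library, by 2.96 ± 0.67 against control (adjusted p = 0.00879), 3.30 ± 0.68 against scMSC (0.0103) and 2.78 ± 0.66 against scivMSC (0.0294). Against scivMSC it was not called without DNCB 1, DNCB 2, DNCB 3, scivMSC 1, scivMSC 2 or scivMSC 3, with adjusted p of 0.0681 to 0.0968. Il1rap, the accessory chain shared by IL-1, IL-33 and IL-36 receptors, averaged 3.96 ± 0.384 FPKM in DNCB and 1.49 ± 0.442, 1.72 ± 0.394 and 1.84 ± 0.348 in control, scMSC and scivMSC. Il1rap rose by 1.23 ± 0.21, 1.18 ± 0.21 and 1.10 ± 0.21 against them (adjusted p = 0.00229, 0.00530 and 0.0129), and against scivMSC it was not called without DNCB 1 (0.0522) or scivMSC 3 (0.0524), in a range up to 0.0524. With limma on log2(FPKM + 1), Il1rap fell under the fold threshold against scMSC (0.87, adjusted p = 0.00512) and scivMSC (0.81, 0.0117). Il1r1, the IL-1 receptor, rose against control by 1.35 ± 0.24 (adjusted p = 0.00291) and stood at 0.47 ± 0.24 against scMSC (0.245) and 0.54 ± 0.24 against scivMSC (0.207). Il1rl2, the IL-36 receptor and the most abundant gene of the list, was not called, with 16.9 ± 0.668 FPKM in DNCB beside 11.1 ± 2.69 in control, 11.5 ± 2.46 in scMSC and 15.5 ± 2.88 in scivMSC.

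Of 15 genes of signalling near the receptor, edgeR called 0 between DNCB and control, with 5 at an unadjusted p under 0.05, 0 by DESeq2 and 2 by limma. Of those 5, Nfkb1 at 0.87 ± 0.17 (adjusted p = 0.00401), Irak4 at 0.84 ± 0.21 (0.0126) and Myd88 at 0.67 ± 0.17 (0.0151) passed the adjusted p and were under the fold threshold, as were Myd88 at 0.83 ± 0.17 (0.0102) and Irak4 at 0.83 ± 0.21 (0.0235) against scMSC. Scaling by library size alone and limma on log2(FPKM + 0.1) called Nfkb1 and Irak4 against control. Between DNCB and scivMSC it called 0, with 2 at an unadjusted p under 0.05 and 0 by either other tool. Nfkbiz, the only one edgeR called with all 12 libraries and TMM scaling, was higher in DNCB than in scMSC. It fell under the fold threshold without DNCB 1 (0.91, adjusted p = 0.0469) or scMSC 3 (0.84, 0.0331), and the adjusted p ran from 2.14e-04 to 0.0469 over the alternatives. The medians were 0.31, 0.40 and 0.33. Nfkbia, which encodes IκBα and was the most abundant, reached 67.2 ± 11.9 FPKM in DNCB beside 43.0 ± 2.57 in control, 38.6 ± 15.8 in scMSC and 47.7 ± 9.54 in scivMSC. Its log2 fold change against scMSC, 0.79 ± 0.23, had an adjusted p of 0.0472 and was under the fold threshold, and without scMSC 1 Nfkbia was called (1.13, adjusted p = 0.00434, in a range of 0.00434 to 0.165). Of 18 inflammasome and protease genes, 15 were tested and Ctsg, Elane and Nlrp1a were not. Nlrp3 was called higher in DNCB in all 3 comparisons, and Casp4, Ctss, Nlrp1b and Pycard against scMSC. Capn2 passed the adjusted p (5.20e-04, 0.00150 and 0.00424) under the fold threshold, at 0.99, 0.99 and 0.80. So did Casp8 against control (0.97, adjusted p = 0.00730) and scMSC (0.95, 0.0147) and, lower in DNCB, Gsdme against control (-0.76, 0.0101). Casp1, the gene of caspase-1, was not called, at 0.54, 0.45 and 0.28 (adjusted p = 0.115, 0.256 and 0.540). Against control and scivMSC, where edgeR called 1 each, DESeq2 called 3 each and limma 4 and 1, with 9 each at an unadjusted p under 0.05. Against scMSC edgeR called 6, with Gsdma lower, DESeq2 8 and limma 7. The medians were 0.78, 0.99 and 0.80. Nlrp3, the sensor of the inflammasome that activates caspase-1, was at 0.804, 0.0706 and 0.617 FPKM in control, 14.4, 10.2 and 8.02 in DNCB, 0.451, 0.615 and 0.0467 in scMSC and 0.288, 1.09 and 0.613 in scivMSC, with the DNCB libraries above the rest, as for Il1b. Its call against scivMSC (adjusted p = 0.0290) was lost without DNCB 1, DNCB 2, DNCB 3, scivMSC 1 or scivMSC 3 (0.0586 to 0.107). Gsdma, the most abundant of the list, encodes a gasdermin of the epidermis and hair follicle. Its mean was 88.2 ± 43.4 FPKM in scMSC and 57.3 ± 14.0 in scivMSC, and 32.5 ± 15.2 in control and 25.5 ± 1.55 in DNCB. DNCB was lower than scMSC, at -1.84 ± 0.40 (adjusted p = 0.0128), not called without DNCB 1 (0.0523) or DNCB 2 (0.0512), in a range up to 0.0523. Against scivMSC, DNCB was at -1.17 ± 0.39 (adjusted p = 0.0955), called in 3 of 22 alternatives. Gsdma was also called higher in scMSC than in control, at 1.32 ± 0.39 (adjusted p = 0.0390). That call held in 11 of 22 alternatives, in a range of 0.00687 to 0.199. The 10 hair shaft and inner root sheath markers, led by Krt71, summed to 12.4, 334 and 4.65 FPKM in control, 449.6, 303 and 953 in DNCB, 7222, 20575 and 10141 in scMSC and 6517, 2638 and 3698 in scivMSC. They were higher in both MSC groups, 10 of 10 called against control in scMSC and 7 in scivMSC, 6 were lower in DNCB than in scMSC and 4 than in scivMSC, and Krt34 was the gene edgeR called higher in DNCB than in control. DESeq2 called 4 and limma 8 of the 10 between DNCB and control, with 5 at an unadjusted p under 0.05 in edgeR. Their part in the level of Gsdma was not tested.

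Of 21 genes that IL-1 or IL-36 is known to induce, 20 were tested, without Csf2. In DNCB 12 were called higher and 1, Il20, lower than in control, 14 higher than in scMSC, and 9 higher and Il20 lower than in scivMSC. Of all genes, 6.59%, 3.84% and 2.33% were called higher in these comparisons, and 7.57%, 4.66% and 3.13% lower. The medians were 4.09, 5.20 and 3.69, beside 0.02, -0.02 and -0.02 for all genes. This list was chosen with earlier results of these data known, so its counts and medians are a description and not a test. With 2 genes that were at 0 in the compared group set to a bound of 3 counts over the group, the medians against control and scMSC were 3.74 and 5.20. S100a8 and S100a9 are also in the neutrophil list. S100a9, a calprotectin subunit and the most abundant of the list, stood at 1966 ± 348 FPKM in DNCB beside 94.8 ± 34.1 in control, 24.0 ± 17.5 in scMSC and 54.5 ± 40.2 in scivMSC. It was higher in DNCB by 4.20 ± 0.74 against control (adjusted p = 0.00265), 6.31 ± 0.82 against scMSC (0.00199) and 5.17 ± 0.77 against scivMSC (0.00546). The neutrophil attractant Cxcl2 was at 4.43, 0.297 and 1.73 FPKM in control, 277, 183 and 158 in DNCB, 1.98, 4.52 and 0.206 in scMSC and 0.147, 16.2 and 4.56 in scivMSC. It rose by 6.38 ± 1.60 against control (adjusted p = 0.0144) and 6.46 ± 1.60 against scMSC (0.0242), and did not pass against scivMSC, at 4.89 ± 1.49 (0.0713). There 5 of the 22 alternatives called it, DESeq2 (adjusted p = 0.00369), limma at all 3 pseudocounts (0.00453 to 0.0371) and counts divided by 4 (0.0375), in a range of 0.00369 to 0.203. The calls of Cxcl2 were lost without control 3 (adjusted p = 0.0530 against control), and against scMSC without DNCB 1, DNCB 2 or any scMSC library (0.0506 to 0.0710). Cxcl3, its close relative, was at 15.3 ± 5.19 FPKM in DNCB and at 0 to 0.628 in the other libraries. It was called against control (adjusted p = 0.0237) and scMSC (0.0260), not without control 2 (0.0631), control 3 (0.0759) or DNCB 1 (0.0634) for the former, nor without any DNCB library, scMSC 1 or scMSC 3 (0.0538 to 0.0735) for the latter. Against scivMSC it was at 5.78 ± 1.66 (adjusted p = 0.0581), called in 9 of 22 alternatives, DESeq2 and limma among them and 2 of these without control 1 (0.0494) or scMSC 3 (0.0463), in a range of 3.23e-05 to 0.163. Cxcl5, made by epithelium, was at 14.6, 6.26 and 24.7 FPKM in DNCB, and at 0 to 8 estimated counts in each control library, with adjusted p = 0.00125, 0.00239 and 0.00796 in the 3 comparisons. Il24, a cytokine of the IL-20 group, was at 0 in control and scMSC, 3.76, 2.35 and 2.83 FPKM in DNCB and 0, 0.760 and 0 in scivMSC. Against control it was called at adjusted p = 0.0314, not without any control or DNCB library (0.0628 to 0.0756), and against scMSC at 0.0475, not without control 1, control 2 or any DNCB or scMSC library (0.0506 to 0.110), nor with scaling by library size alone (0.0523) or the replicate block (0.0723). Against scivMSC it was at 3.57 ± 1.71 (adjusted p = 0.281) and not called, while limma at all 3 pseudocounts (8.02e-04 to 0.0281) and the fit without scivMSC 2 (0.00682) called it, in a range of 8.02e-04 to 0.647. The part of neutrophil content in these values was not tested.

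Markers of muscle and fat showed what else the dissected skin held. Skeletal muscle markers, 6 genes led by Acta1, summed to 20501, 20598 and 14648 FPKM in control, 4115, 4862 and 5676 in DNCB, 7082, 4151 and 9551 in scMSC and 5766, 4401 and 10772 in scivMSC. Control libraries held the most muscle RNA, with 5 of 6 genes lower in DNCB and 4 lower in each MSC group, and 0 called between DNCB and either MSC group by edgeR, DESeq2 or limma, with 0 at an unadjusted p under 0.05. Adipocyte markers, 5 genes led by Fabp4, summed to 187 to 325 FPKM in control, 127 to 235 in DNCB, 206 to 401 in scMSC and 273 to 392 in scivMSC. Cidec and Plin1 were lower in DNCB than in control, and Cidec was lower and Lep higher than in scivMSC. Muscle and fat take a share of each library, and their part in the levels of the 10 genes was not tested.

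The nearest patterns were searched among 14385 genes by the Pearson correlation of log2(FPKM + 0.1) over the 12 libraries, which share groups and depth, and are given as a description. Nearest to Il1b were Nlrp3 (r = 0.992), Trem1 (0.991) and Cxcl2 (0.980). Il1rl1 was nearest to Pxdn (0.993), Mmp14 (0.988) and Lox (0.987), and Il33 to Thy1 (0.985), Tspo (0.984) and Ifitm2 (0.983). Among the IL-36 genes, Il36b was closest to Casp14 (0.944), Krt1 (0.923) and Otop3 (0.915), and Il36rn to Tmprss13 (0.919), Cds1 (0.906) and Flg (0.899). For Il18 these were Rasal1 (0.953), Sbsn (0.947) and Clca2 (0.942), for Il36a Slc5a1 (0.921), Klk9 (0.921) and Ankk1 (0.919), and for Il36g Serpinb3b (0.960), Il17rc (0.956) and Tmem154 (0.951). Il1a was nearest to Ptpn6 (0.941), Rab7 (0.914) and Gm15922 (0.913). Il1rn had the weakest, Prps1l3 (0.879), Slc36a1 (0.868) and Lig4 (0.864).

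In the GRCm38 coordinates of the table, 7 of the 10 genes lie on chromosome 2. Il36b (ENSMUSG00000026985, chr2:24153161-24160519), Il36g (ENSMUSG00000044103, chr2:24186476-24193568), Il36a (ENSMUSG00000026984, chr2:24215418-24225702), Il36rn (ENSMUSG00000026983, chr2:24276954-24283426) and Il1rn (ENSMUSG00000026981, chr2:24336853-24351494) follow each other on the plus strand. Il1a (ENSMUSG00000027399, chr2:129299610-129309972) and Il1b (ENSMUSG00000027398, chr2:129364570-129371139) lie farther on, on the minus strand. Il1rl1 (ENSMUSG00000026069, chr1:40429570-40448148, plus strand) lies between Il1rl2 and Il18r1. Il18 (ENSMUSG00000039217) is at chr9:50554827-50581840 and Il33 (ENSMUSG00000024810) at chr19:29925114-29960718, both on the plus strand. For 3 of the 10 a gene on the other strand overlaps, Gm14023 for Il1a, Il1bos for Il1b and both Bco2 and Tex12 for Il18. The strand used in counting was not given in the sources used here, so reads of such partners cannot be told apart. The partners stood at 0.0492 to 0.737 FPKM for Gm14023, 0.0152 to 0.209 for Il1bos, 0.0997 to 0.801 for Bco2 and 0 to 0.369 for Tex12.

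Between Il36rn and Il1rn lies Il1f10 (ENSMUSG00000046845, chr2:24291196-24293820, plus strand), the gene of IL-38, which is not among the 10. It was at 8.08, 5.60 and 6.90 FPKM in control, 1.26, 1.27 and 0.370 in DNCB, 8.95, 23.3 and 11.4 in scMSC and 4.37, 2.72 and 3.75 in scivMSC. The DNCB libraries were the 3 lowest of the 12 and the scMSC libraries the 3 highest. Il1f10 was lower in DNCB in each comparison, at -2.99 ± 0.52 on the log2 scale against control (adjusted p = 0.00258), -3.94 ± 0.54 against scMSC (0.00231) and -1.90 ± 0.50 against scivMSC (0.0440). The last was not called without any single control or DNCB library, scMSC 3, scivMSC 1 or scivMSC 3, 9 of the 12 (0.0529 to 0.125). Nor was it called with no filter on low values (0.0553), the 6 libraries alone (0.0877) or the replicate block (0.0648). Of the 22 alternatives 10 called it, and the adjusted p ran from 0.00284 to 0.125. Between the MSC groups, scMSC against scivMSC was at 2.04 ± 0.50 (adjusted p = 0.565), called by DESeq2 alone (0.0105). Neighbours in this cluster therefore went in different directions in DNCB against scMSC, with Il36a and Il36g higher, Il1f10 lower and Il36b, Il36rn and Il1rn not called.

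**Figure D4:**
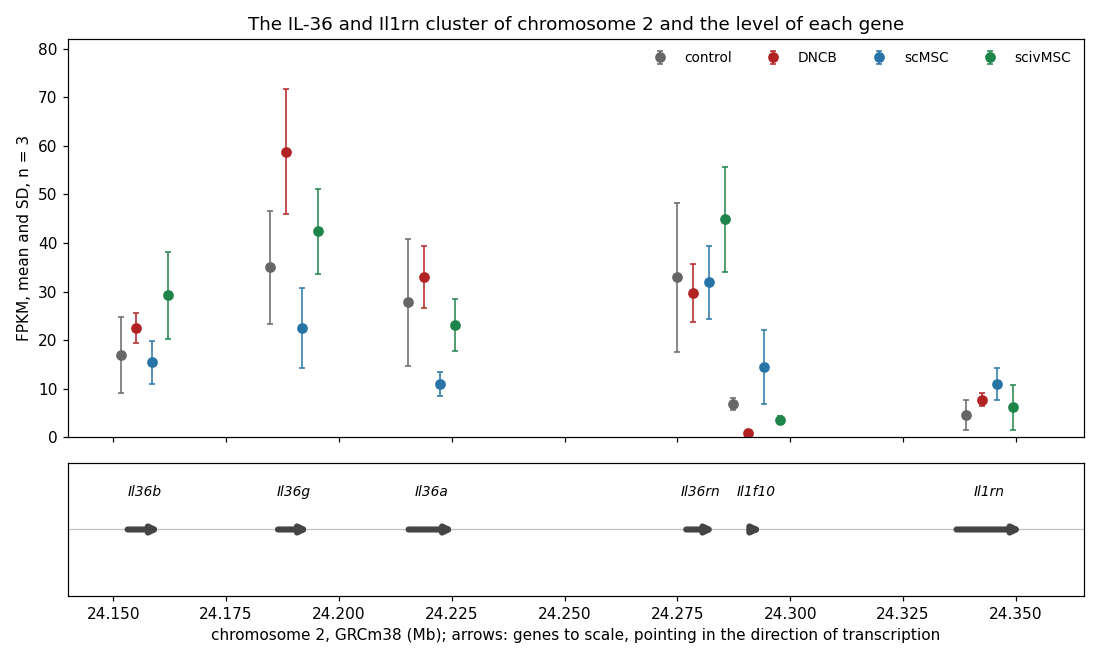
Map of the IL-36 and Il1rn region of chromosome 2 (GRCm38, position in Mb, genes to scale) with the mean FPKM of each group (points) and SD (bars) above each gene. Il36g reaches 58.8 FPKM in DNCB, and Il1f10 is at 0.967 in DNCB and 14.5 in scMSC.

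Sequences before the gene start were compared because 3 genes, Il1b, Il33 and Il1rl1, rose against control together. RefSeq promoter entries on GRCm38.p6 matched 9 of the 10 genes, Il36a being the other, and gave 14 windows of 250 bases. They were searched on both strands for the NF-kB motif, the AP-1 motif TGANTCA and the C/EBP motif TTGCNNAA, and no match overlapped a match to another motif. Of the 14 windows, 0 held the NF-kB motif, 3 the AP-1 motif and 3 the C/EBP motif, beside 3.90%, 6.75% and 9.56% of all 32851 windows in the reference. AP-1 letters were 236 to 230 bases before the start of Il36b, 141 to 135 before that of Il1rn and 12 to 6 before that of Il1a. The C/EBP matches were in Il1rl1, Il33 and Il36rn, 34 to 27, 85 to 78 and 71 to 64 bases before the start. Il1rl1 and Il33 held the same letters, TTGCATAA, shown in capitals. The Il1rl1 window is chr1:40429320-40429569 on the plus strand, just before the gene. For Il33 it is chr19:29945540-29945789 on the plus strand, inside an intron of the longer transcript and before the start of a shorter one. The Il1b window, chr2:129371140-129371389 on the minus strand, lies just before the gene and holds none of the motifs. Another window of Il1rl1 and another of Il33 held no match. A match is a description of letters and not a binding site.
Il1rl1: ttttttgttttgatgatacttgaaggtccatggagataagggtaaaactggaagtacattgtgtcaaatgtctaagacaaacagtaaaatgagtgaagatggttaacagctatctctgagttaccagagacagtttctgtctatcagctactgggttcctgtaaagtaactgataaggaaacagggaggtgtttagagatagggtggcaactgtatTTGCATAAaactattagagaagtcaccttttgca
Il33: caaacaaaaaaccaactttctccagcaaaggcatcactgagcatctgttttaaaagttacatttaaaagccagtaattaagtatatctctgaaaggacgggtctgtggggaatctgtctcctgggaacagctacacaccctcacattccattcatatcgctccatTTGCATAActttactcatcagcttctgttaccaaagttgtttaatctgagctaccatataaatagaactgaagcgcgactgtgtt
Il1b: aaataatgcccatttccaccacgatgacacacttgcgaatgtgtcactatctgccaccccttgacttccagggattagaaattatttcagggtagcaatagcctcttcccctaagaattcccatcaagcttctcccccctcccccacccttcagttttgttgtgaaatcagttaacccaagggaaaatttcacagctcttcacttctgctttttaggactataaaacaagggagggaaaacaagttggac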

How the data were processed

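FPKM, which the authors scaled for length and depth, and estimated counts, rounded to whole numbers and not normalized between libraries, are as deposited. The submitters' processing notes name Bowtie 0.12.2, HISAT2 2.0, StringTie 1.3.0 and mm8, while 36285 of the 36400 gene IDs overlap their GRCm38 position in GENCODE M21. Of counts from 1 to 18, 38.9% to 41.2% per library are multiples of 4, so counts divided by 4 are among the alternatives. Every gene averaging 0.1 FPKM or more went into edgeR 4.0.16 (R 4.3.3), with TMM factors of 0.887 to 1.06, a biological coefficient of variation of 0.420 and 1 model of 4 groups. The 22 alternatives include DESeq2 1.42.0, limma 3.58.1, other filters and scalings, a replicate block and each library left out. Named from each list were up to 4 called genes with the largest change between DNCB and control and at least 1 FPKM in either, and the most abundant. Lists cover 4 parts of the pathway, 13 cell types and a skin check. Members and lists were chosen with earlier results of these data known. The steps were tested on simulated data. Tables and plots came from Python 3.11.15 with pandas 2.3.3 and matplotlib 3.10.9.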

Additional observations from a re-analysis of the deposited data

How the results depend on the processing

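For single genes the threshold is the adjusted p alone. Of 1320 values of the 10 genes across comparisons and alternatives, 1248 are counted as same in direction and side of the threshold, 20 lost it, 24 passed it and 28 changed sign. Il1a between the MSC groups, at 0.00, was given no direction and is among the 1248, although it ran from -0.37 to 0.34 with single libraries left out. Il1rl1 in scMSC against scivMSC was at 0.11 and 0.18 with limma on log2(FPKM + 0.1) and log2(FPKM + 0.01), and Il36rn in scMSC against control at 0.05 with limma at all 3 pseudocounts. With single libraries left out, signs changed within -0.96 to 0.01 (Il1a), -0.95 to 0.30 (Il1b), and -0.53 to 0.09 (Il36rn) for scMSC against control. For scivMSC against control they did within -0.93 to 0.01 (Il1a), -0.01 to 1.02 (Il1b), -0.59 to 0.91 (Il1rn), -0.58 to 0.02 (Il18), -0.13 to 0.29 (Il36g) and -0.05 to 0.57 (Il36rn). The same held for DNCB against control within -0.27 to 0.35 (Il36a) and -0.12 to 0.43 (Il36b), against scMSC within -0.29 to 0.02 (Il36rn), against scivMSC within -0.01 to 1.14 (Il1rn), and between the MSC groups within -0.67 to 0.30 (Il1rl1) and -1.51 to 0.23 (Il33).

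Counted by the adjusted p alone, edgeR's calls among the 10 genes stay at 4, 4, 2, 1, 0 and 0 in the 6 comparisons. With the fold threshold their number ran, over left-out libraries, from 2 to 4 for DNCB against control, 0 to 3 against scivMSC, 1 to 4 for scMSC against control and 0 to 1 for scivMSC against control. DESeq2 gave 6 for DNCB against scMSC, 4 against scivMSC and 1 for scivMSC against control. Limma on log2(FPKM + 1) gave 6 and 3 for DNCB against scMSC and scivMSC, and the 6 libraries alone 5 and 3, and 0 for scMSC against control. By the adjusted p alone, the 6 libraries gave 4 for DNCB against scivMSC and DESeq2 2 for scMSC against control. In the whole table the left-out counts ran from 1222 to 2008 for DNCB against scMSC, 476 to 1442 against scivMSC, 843 to 1798 for scivMSC against control and 1 to 5 between the MSC groups. DESeq2 called 1883 genes for DNCB against scivMSC and 115 between the MSC groups, limma on log2(FPKM + 1) 1300 for scMSC against control, limma on log2(FPKM + 0.1) 2 between the MSC groups, and the 6 libraries alone 795 for scivMSC against control and 3 between the MSC groups. The cause of these shifts was not tested. Scaling by library size alone moved the median log2 fold change of all genes against control to 0.20 (DNCB), 0.16 (scMSC) and 0.21 (scivMSC). The split of higher and lower genes went for DNCB from 1442 and 1656 to 2020 and 1301, for scMSC from 1120 and 920 to 1477 and 670 and for scivMSC from 766 and 734 to 1134 and 566. With limma on log2(FPKM + 0.1) it was 2192 and 1384 for DNCB and 1174 and 685 for scivMSC, on log2(FPKM + 1) 1242 and 849 for DNCB, and on log2(FPKM + 0.01) 2242 and 1365, 1589 and 792 and 1235 and 641 for the 3 groups.

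The replicate number as a block called 3 of the 10 genes against control and 1 against scivMSC, with Il18 against control at adjusted p = 0.0599 and Il1b against scivMSC at 0.0674. The 18 same-numbered pairs of libraries had correlations of -0.185 to 0.133, and pairs with different numbers -0.148 to 0.148. The labels do not say whether a number marks a shared litter, cage or day, so a pairing of the mice is not known. The block called 2866, 1566, 845, 1835, 1344 and 1 genes of the whole table in the 6 comparisons.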
